A study of Mus musculus with 6 samples.

Results

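Tumour neutrophils were taken from single-cell transcriptomes of implanted mouse melanomas by their transcripts alone. A barcode, the tag that marks 1 captured cell, was kept when it held at least 500 transcript counts (UMIs, each counted once per captured molecule) and 300 genes, with at most 20% mitochondrial UMIs. It was called a neutrophil when S100a8 and S100a9 together gave at least 3 UMIs, Csf3r, Cxcr2, Il1r2 and Hdc together at least 1, the C1q genes (C1qa, C1qb, C1qc) at most 1, Cd3e none, and the total did not exceed 6000 UMIs. These cells were thus chosen by measured counts of those genes, whose levels are given only as a description. Of 43929 deposited barcodes 43843 passed the general limits, and 941 of those (2.146%) were neutrophils. The control line gave 295 of them under IgG and 384 under anti-PD1, hairpin 1 gave 29 and 65, and hairpin 2 gave 64 and 104.

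The tumours grew from Yumm5.2, a mouse melanoma cell line, placed under the skin of C57BL/6 mice (350000 cells each). Every line, the control included, carried a short hairpin RNA against Cdkn2a. The control line carried shControl beside it, and the other lines carried shSlc39a9 #1 (hairpin 1 here) or shSlc39a9 #2 (hairpin 2), directed at the zinc transporter gene Slc39a9. Mice received 200 µg of anti-PD1 or of the control IgG into the peritoneum on 3 days of each week until tumours reached 0.5 cm3 and were removed. Each line and treatment is 1 library, so knockdown is 4 libraries against 2. The age and sex of the mice, and how many tumours went into a library, are not given in the sources used here, and each hairpin is 1 transduced line, so p-values measure the spread between these libraries, which may be technical.

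Neutrophils are short-lived granulocytes made in the bone marrow and called into tissue through the receptor Cxcr2 under control of the growth factor receptor Csf3r. They store proteases and antimicrobial proteins in granules that are filled in sequence during maturation, and they carry little RNA. In tumours they are known as sources of interleukin 1 and CXC chemokines, and part of them can carry an interferon-induced programme.

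The comparison of both knockdown lines together with control, described below, called no gene. The 9 genes called higher in hairpin 2 neutrophils against control are known to be induced by interferon. Promoters of such genes often hold the interferon-stimulated response element. Its core, GAAANNGAAA on either strand (TTTCNNTTTC on the other), was searched in the 250 bases before the start of each gene, from RefSeq on GRCm38.p6, overlapping matches counted. It stood there in 7 of the 9 genes that were higher in hairpin 2 neutrophils (77.8%), in 7 of the 21 matched genes of a 26-gene type I interferon list (33.3%), and in 936 of 27025 genes in all (3.46%). The windows of Gbp5, Gbp2, Isg15, Cxcl10, Ddx60, Rsad2 and Ifit3 held it. Those of Cmpk2 and Ifit2 did not. A match is a description of the letters, and binding was not measured. The windows of the genes that carry most of the results are shown 5′ to 3′ along the gene's strand, with the matches in capitals:
Rsad2, chr12:26456453-26456702, minus strand: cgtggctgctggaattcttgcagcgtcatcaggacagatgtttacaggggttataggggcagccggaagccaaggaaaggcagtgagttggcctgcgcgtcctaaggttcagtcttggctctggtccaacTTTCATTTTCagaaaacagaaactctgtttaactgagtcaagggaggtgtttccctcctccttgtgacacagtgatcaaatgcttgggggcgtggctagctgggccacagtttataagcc
Isg15, chr4:156200819-156201068, minus strand: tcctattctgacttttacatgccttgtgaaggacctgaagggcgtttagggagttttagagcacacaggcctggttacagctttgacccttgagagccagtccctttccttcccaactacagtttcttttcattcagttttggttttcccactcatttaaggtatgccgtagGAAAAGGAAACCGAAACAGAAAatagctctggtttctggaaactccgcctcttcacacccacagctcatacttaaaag
Cxcl10, chr5:92348890-92349139, minus strand: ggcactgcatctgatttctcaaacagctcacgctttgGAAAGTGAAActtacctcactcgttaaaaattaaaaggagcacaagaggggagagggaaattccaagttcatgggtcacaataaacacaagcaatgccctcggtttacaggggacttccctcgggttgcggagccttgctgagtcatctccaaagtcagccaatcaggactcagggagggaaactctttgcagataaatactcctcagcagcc
Ifit3, chr19:34583279-34583528, plus strand: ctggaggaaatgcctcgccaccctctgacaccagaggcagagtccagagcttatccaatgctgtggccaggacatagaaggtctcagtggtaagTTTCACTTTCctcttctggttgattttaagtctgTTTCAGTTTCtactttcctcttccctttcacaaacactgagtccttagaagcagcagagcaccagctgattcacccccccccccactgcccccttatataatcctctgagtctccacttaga
Matches began 120 bases before the start in Rsad2, from 78 to 66 bases before it in Isg15 (3 overlapping matches), 213 bases before it in Cxcl10, and 156 and 122 bases before it in Ifit3.

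The members looked like neutrophils by genes that the selection did not use. Their median depth was between 818 and 1059 UMIs per cell by library, against 5842.5 to 8132.5 for the other barcodes, and their sums came to 370011 and 486357 UMIs in the control libraries, 37834 and 70652 under hairpin 1, and 63990 and 142169 under hairpin 2. Retnlg, a resistin-like secreted protein, had the highest ratio to all other barcodes of any gene with a mean of at least 200 CPM (UMIs per 1000000 UMIs of the neutrophils of a library). Its mean was 793 CPM against 0.383 CPM, followed outside the selection genes by Chil1, Gm5483 of the stefin A cluster, H2-Q10, the interleukin 36 gene Il1f9 and G0s2, an inhibitor of fat breakdown. Chosen cells against the rest is no test. Ly6g, a surface marker used to sort mouse neutrophils, gave only 24 UMIs in all. It was at 0 in the macrophages.

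The 12 neutrophil markers outside the selection summed to 9694 and 10350 CPM in control, 8617 and 10710 under hairpin 1, and 8111 and 6964 under hairpin 2. The 5 markers S100a8, S100a9, Csf3r, Cxcr2 and Hdc are all selection genes. They summed to 16820 to 21640 CPM, against 23.9 to 59.1 in macrophages. The macrophages were themselves chosen with S100a8 and S100a9 together under 3 UMIs, so this contrast is no test.

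Some genes of early, marrow-stage granules were nearly absent. Mpo gave 0 UMIs in every library, Prtn3 gave 6 in all, and the lactoferrin gene Ltf between 0 and 10 per library. Other genes of the same primary and secondary granule lists were present. In the control libraries Ctsc gave 94 and 96 UMIs, Lcn2 248 and 261, and Chil3 290 and 268. Most Ctsc (84.0% and 70.8%) and Chil3 UMIs (71.0% and 69.0%) lay in members with monocyte or macrophage transcripts, described below. For Lcn2 that part was 14.9% and 20.7%. Other blood lineages left little trace: T or NK markers summed to 0 to 86.5 CPM, B cell markers to 0 to 42.5, and mast cell or basophil markers to 0 to 70.8, with Mcpt8, Ms4a2, Fcer1a and Prss34 at 0. Eosinophil markers reached 42.2 CPM, dendritic cell markers 91.4, endothelial markers 324, fibroblast or pericyte markers 338, red cell markers 57.6 and platelet markers 108. The tumour-line list (10 genes, such as Sparc and Col3a1) reached 2657 and 2687 CPM in control neutrophils, 4044 and 2038 under hairpin 1, and 2594 and 4614 under hairpin 2. Y-linked transcripts were seen in 35.6% to 41.2% of neutrophils and Xist, which marks the tumour line here, in 0% to 3.45%.

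**Figure D1:**
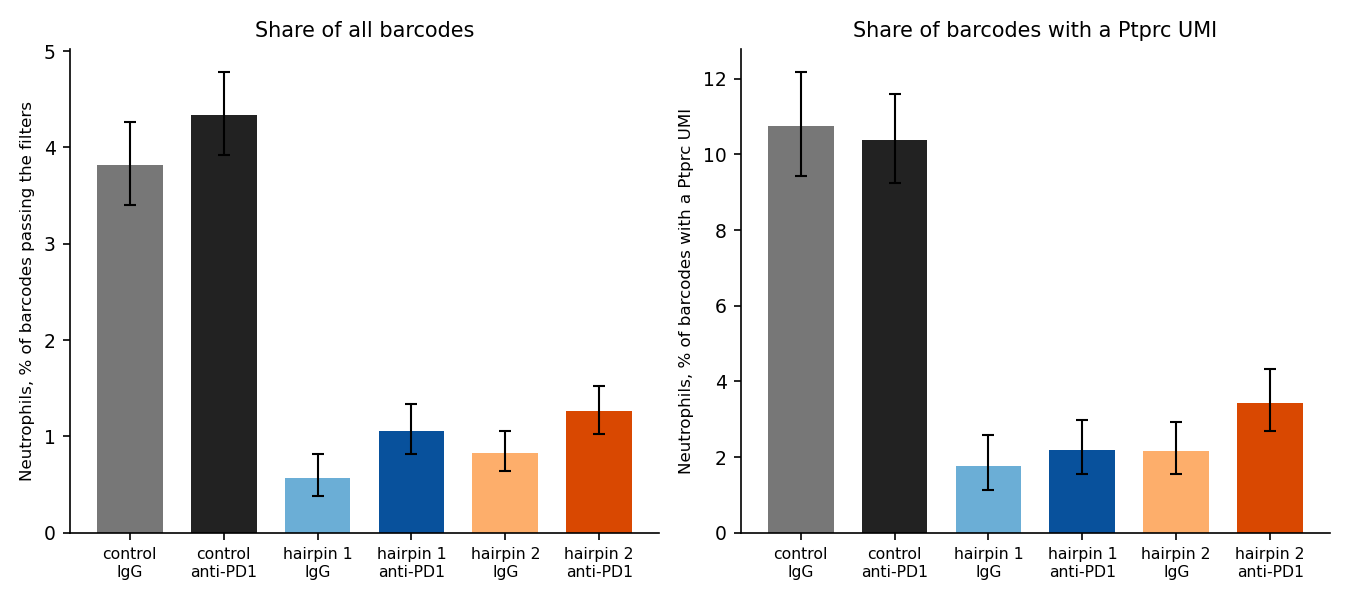
Share of neutrophils in each of the 6 libraries, as percent of all barcodes that passed (left) and of barcodes with a Ptprc UMI (right). Bars are the shares and whiskers exact 95% binomial intervals, which cover counting error only. Both control libraries stand above all 4 knockdown libraries on each scale.

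Neutrophils were scarcer in the Slc39a9 knockdown tumours of either hairpin. They were 3.82% (exact binomial interval 3.40% to 4.27%) and 4.34% of barcodes in the control IgG and anti-PD1 libraries, 0.571% and 1.05% under hairpin 1, and 0.827% and 1.26% under hairpin 2. The groups did not overlap: knockdown averaged 0.927% ± 0.296 (SD, n = 4) and control 4.08% ± 0.367 (SD, n = 2), a difference of -2.19 on the log2 scale, or 4.57-fold. The two-sided exact permutation p was 0.133, the smallest that 4 against 2 libraries can give. Counted among barcodes with a UMI of Ptprc, the gene of the leukocyte antigen CD45, the shares were 10.7% and 10.4% in control, 1.75% and 2.18% under hairpin 1, and 2.17% and 3.44% under hairpin 2. Shares were those of captured cells, and neutrophils with under 500 UMIs were not counted.

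Macrophages were not lower with them. They were taken as barcodes with at least 5 C1q UMIs, under 3 UMIs of S100a8 and S100a9 together, and no Cd3e. They made up 18.6% and 20.9% of barcodes in control, 26.0% and 27.0% under hairpin 1, and 20.3% and 21.5% under hairpin 2 (log2 difference 0.255, exact permutation p = 0.267). There were 20.5 and 20.8 neutrophils per 100 macrophages in the control libraries, 2.20 and 3.90 under hairpin 1, and 4.07 and 5.87 under hairpin 2. Ly6c2 and Ccr2 monocytes were 0.518% and 0.824% of control barcodes and 0.276% to 0.75% of knockdown barcodes (exact permutation p = 0.4).

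Under anti-PD1 the neutrophil share was higher in each line, by 1.14-fold in control, 1.84-fold under hairpin 1 and 1.52-fold under hairpin 2. The mean log2 difference over the 3 lines was 0.557, with a two-sided exact permutation p of 0.25, the smallest that 3 pairs allow. Among Ptprc barcodes it was 0.311, higher in 2 of 3 lines (exact permutation p = 0.5).

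Some members lay close to the selection limits. S100a8 and S100a9 summed to exactly 3 UMIs in 88 members and to 2 in 110 barcodes that met every other condition, C1q stood at 1 in 65 members and at 2 in 12 excluded barcodes, and 83 barcodes were left out for more than 6000 UMIs. With S100a8 and S100a9 at 10 UMIs or more, 511 members were left and the share difference was -2.12 (log2). Library pairs shared between 3873 and 6931 barcode sequences. Of 1026 cases in which a neutrophil barcode of 1 library also occurred in another, it was a neutrophil in both in 32 (3.12%). The neutrophil share of the second library ran from 0.571% to 4.34% by pair. In the control pair it was 11 of 163 (6.75%), against a share of 4.34%. Carry-over between libraries was not tested.

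Messages of inflammatory secretion were among the most abundant of the neutrophils. Il1b, which encodes interleukin 1 beta, was at 14830 and 15440 CPM in control, 18290 and 14710 under hairpin 1, and 21390 and 15890 under hairpin 2. Cxcl2, a chemokine that acts on Cxcr2, was at 8108 and 9746 CPM in control, 10470 and 12370 under hairpin 1, and 9720 and 9228 under hairpin 2. The libraries overlapped for both genes. After each cell was thinned to 500 UMIs, Il1b was seen in 89.2% to 96.6% of neutrophils and in 22.2% to 35.0% of macrophages treated alike, and Cxcl2 in 76.3% to 84.4% against at most 26.5%. Without thinning, Il1b was seen in 94.2% of the control IgG neutrophils and Cxcl2 in 84.4%. Mcl1, a survival protein of neutrophils, was at 3066 to 4313 CPM, and Acod1, which makes itaconate, at 1824 to 3468 CPM.

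Neutrophils held a share of some tumour transcripts far above their share of UMIs, which was 0.457% and 0.585% in control, 0.0573% and 0.120% under hairpin 1, and 0.0872% and 0.175% under hairpin 2. They held 27.0% and 25.9% of all Il1b UMIs in the control libraries, 6.08% and 7.95% under hairpin 1, and 7.76% and 12.5% under hairpin 2. For Retnlg the share was 77.8% to 97.3%, for Acod1 45.4% to 63.5%, for the intracellular growth regulator Slfn4 30.0% to 46.2%, and for Cd274, the gene of PD-L1, 21.4% and 20.1% in control and 3.63% to 14.2% in knockdown. They held at most 0.168% of Cxcl1 and 0.433% of Csf3. These are shares of a library's UMIs. The number of neutrophils moved with them, as given above, and their median depth was 1059 and 1055 UMIs in control and 818 to 960.5 in knockdown.

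**Figure D2:**
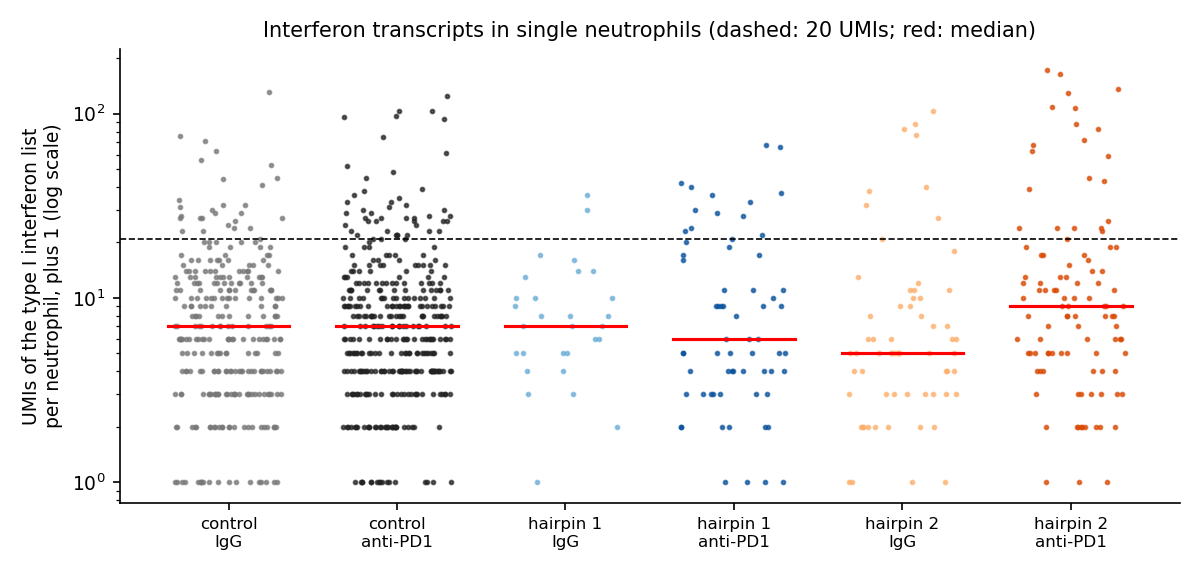
UMIs of the 26 type I interferon list genes in each of the 941 neutrophils, plus 1, on a log axis. Points are cells, red lines are library medians (4 to 8 UMIs before 1 was added), and the dashed line is at 20 UMIs. The medians lie close together, and the libraries differ in how many cells lie above the line.

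The interferon genes were unevenly spread among the cells. The list (Isg15, Rsad2, the Ifit genes and others induced by type I interferon) gave a median of 6 and 6 UMIs per cell in control, 6 and 5 under hairpin 1, and 4 and 8 under hairpin 2, while the highest cells held 131, 124, 35, 67, 103 and 172. Cells with at least 20 such UMIs were 9.49% and 12.5% of control neutrophils (28 and 48 cells), 6.90% and 21.5% under hairpin 1 (2 and 14 cells), and 14.1% and 21.2% under hairpin 2 (9 and 22 cells). Their exact binomial intervals ran from 6.40% to 13.4% in control IgG, from 0.846% to 22.8% in hairpin 1 IgG and from 13.8% to 30.3% in hairpin 2 anti-PD1. This is a range of a sum and no cell type: between 0 and 17 cells of a library lay at 17 to 22 UMIs.

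These cells held much of the list's transcripts: 38.8% and 48.6% of its UMIs in control, 26.2% and 64.7% under hairpin 1, and 67.8% and 73.8% under hairpin 2. The list stood at 7462 and 7852 CPM over all control neutrophils, 6449 and 10620 under hairpin 1, and 11550 and 14520 under hairpin 2. Among the cells below 20 UMIs it stood at 5347 and 4900 CPM, 5025 and 4966, and 4443 and 5692. The cells below 20 UMIs are limited by the same sum, so their level is a description and does not locate the difference. The cells above it were deeper (median 1442 against 1008 UMIs in control IgG, 1546.5 against 894.5 in hairpin 2 anti-PD1). With every cell thinned to 500 UMIs, which left out none, those with 10 or more list UMIs were 8.81% and 8.85% in control, 10.3% and 16.9% under hairpin 1, and 17.2% and 16.4% under hairpin 2.

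Some other genes differed in these cells, as a description with no test. Acod1 and the chemokine gene Ccl4 were higher in them than in the remaining neutrophils in 6 of 6 libraries, and Cd274 in 5 of 6. Cd274 was at 1016 against 469 CPM in control IgG and at 1846 against 379 CPM in hairpin 2 anti-PD1. Osm, a cytokine of the interleukin 6 family, showed no common difference. It was lower in 5 of 6 libraries, but at 1349 against 1406 and 1225 against 1260 CPM in control. In hairpin 2 IgG it was higher, at 3836 against 1475 CPM. Hairpin 1 IgG had only 2 of these cells, so its part in each of these counts rests on those.

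A second source of variation was Retnlg. Cells with at least 3 Retnlg UMIs were 40 and 69 in control (13.6% and 18.0%), 0 and 6 under hairpin 1 (0% and 9.23%), and 3 and 9 under hairpin 2 (4.69% and 8.65%). In both control libraries these cells were higher in S100a8 and S100a9, the collagenase gene Mmp8, the iron-binding Lcn2 and G0s2. They were lower there in the matrix protein gene Spp1, the prostaglandin synthase gene Ptgs2, the haem oxygenase gene Hmox1 and Icam1. The knockdown libraries had only 3 to 9 such cells where they had any, too few to call these genes higher or lower. In those cells Icam1 gave no UMI, and Hmox1 gave none in hairpin 1 anti-PD1 and hairpin 2 IgG.

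**Figure D3:**
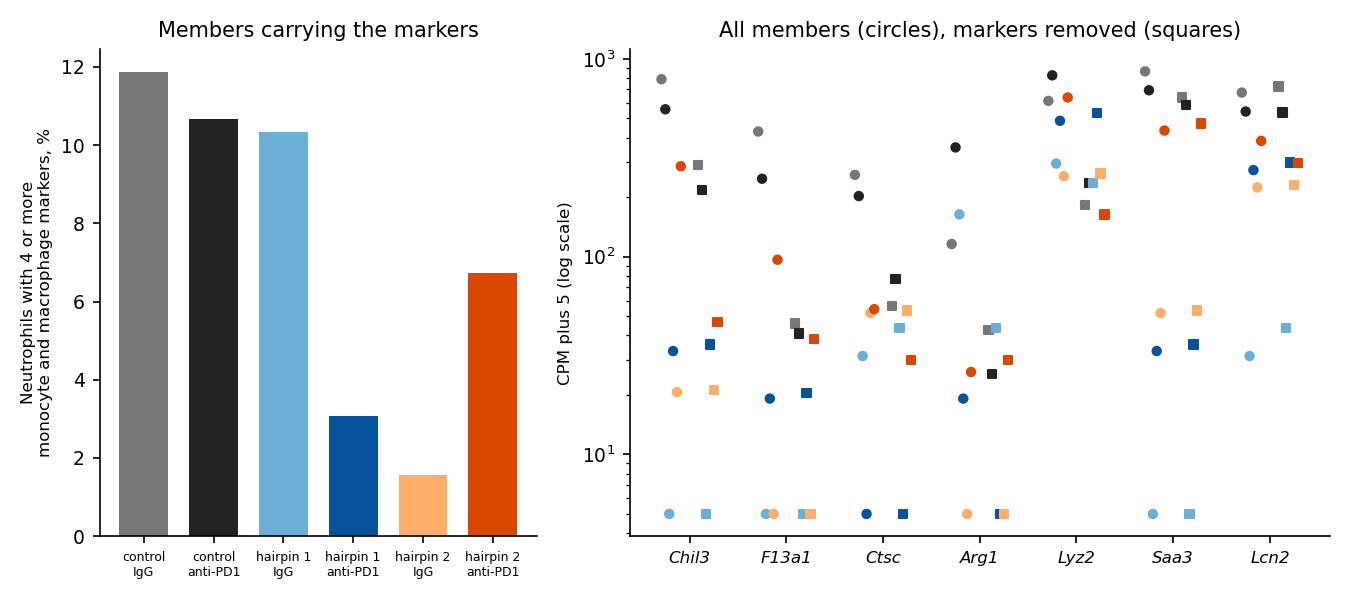
Left: share of neutrophils with UMIs of 4 or more different monocyte and macrophage markers in each library. Right: CPM plus 5 on a log axis for 7 genes in all neutrophils (circles) and after those cells were removed (squares), 1 point per library in the colours of the left panel. In both control libraries Chil3, F13a1, Ctsc and Arg1 drop on removal, while Saa3 drops less and Lcn2 changes little. Chil3 and F13a1 are themselves among the markers that defined removal.

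Part of the members also carried monocyte or macrophage transcripts. UMIs of 4 or more different genes out of 20 such markers were found in 35 and 41 control neutrophils (11.9% and 10.7%), in 3 and 2 of hairpin 1 (10.3% and 3.08%), and in 1 and 7 of hairpin 2 (1.56% and 6.73%). They were deeper than the rest, with medians of 1600 and 2312 UMIs in the control libraries against 1001 and 1001. In both control libraries they were lower in Cxcr2, Hdc, Il1b, Cd274 and Retnlg. The knockdown libraries had 1 to 7 such cells, too few to call these genes lower there. Over all members the monocyte list summed to 2103 and 1528 CPM in control, 872 and 241 under hairpin 1, and 344 and 1196 under hairpin 2. The macrophage list summed to 1862 and 1721, 899 and 1231, and 922 and 1428 CPM. No doublet caller was run, and whether these barcodes held 2 cells was not tested. The neutrophil share difference without them was -2.10 on the log2 scale, and results they touch are given below with and without them.

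In the knockdown design Slc39a9 was targeted in the tumour cells, and neutrophils come from the host. In barcodes with Xist, Slc39a9 was at 25.9 and 22.0 CPM in control, 8.36 and 8.21 under hairpin 1, and 13.2 and 11.1 under hairpin 2. The neutrophils gave 8 Slc39a9 UMIs in all, too few to test.

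**Figure D4:**
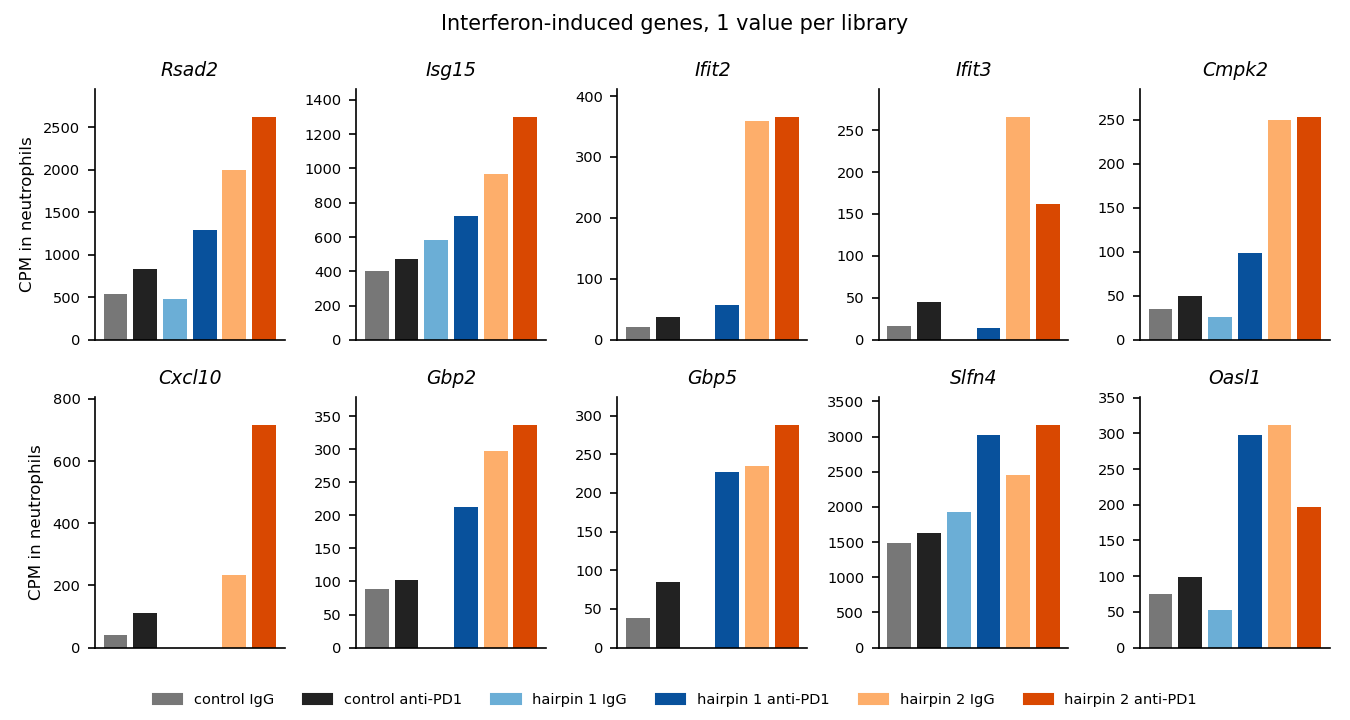
CPM of 10 interferon-induced genes in the neutrophils of each library, from 0 on a linear axis, 1 bar per library. Both hairpin 2 libraries lie above both control libraries for all 10 genes. Most of the 10 are among those called higher under hairpin 2, so their place above control is a description only. Ifitm1 of the type I list, not shown, is at 2095 and 1999 CPM in control and 1531 and 1533 under hairpin 2. Hairpin 1 IgG, with 29 cells, is at 0 for Ifit2, Ifit3, Cxcl10, Gbp2 and Gbp5.

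Comparing both knockdown lines together with the control line asks what the remaining neutrophils shared. edgeR's quasi-likelihood test called 0 of 2439 genes at a Benjamini-Hochberg adjusted p under 0.05 (0% called), and DESeq2 called 0. At an unadjusted p under 0.05 there were 151 genes (6.19%), 98 higher (4.02%) and 53 lower (2.17%). Of the 21 testable genes of the 26 in the type I interferon list, 11 were among the higher and none among the lower. Their median log2 difference was 0.83, against 0.02 over all genes, and 18 of 21 were positive. The interferon gamma list (13 of 24 testable) had a median of 0.60 with 3 higher at that level.

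Isg15, a ubiquitin-like protein that is attached to others after interferon, separated the groups. It was at 400 and 473 CPM in control, 582 and 722 under hairpin 1, and 969 and 1301 under hairpin 2. All 4 knockdown libraries lay above both controls, as they did for 5% of all genes (log2 difference 1.10 ± 0.29 SE, edgeR adjusted p = 0.288). Slfn4 was at 1484 and 1633 CPM in control, 1929 and 3029 under hairpin 1, and 2454 and 3172 under hairpin 2, again without overlap (0.79 ± 0.23, adjusted p = 0.298). Ifit2, which binds translation factors and RNA, was at 21.6 and 37.0 CPM in control, 0 and 56.6 under hairpin 1, and 359 and 366 under hairpin 2 (2.91 ± 0.67, adjusted p = 0.252). Here hairpin 1 IgG lay below the controls.

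These values depended on the deepest and most monocyte-marked members. With members of at most 3000 UMIs the test called 8 genes, among them Ifit2, Isg15, Rsad2, Gbp5 and Slfn4 higher and Chil3 and F13a1 lower. Without the marked members it called 2, Ifit2 higher (3.52, adjusted p = 0.0255) and Chil3 lower (-3.02, adjusted p = 0.0112). With both limits, chosen after seeing the data, it called 14. The 11 higher were Ifit2, Rsad2, Gbp5, Isg15, Cmpk2, Oasl1, Slfn4, Cxcl10, Ddx60, Ell2 and Ifi204, and the 3 lower were Chil3, Lcn2 and Plin2. Leaving out 1 library gave 0 to 10 calls: 10 without control anti-PD1, 8 without hairpin 1 IgG, 7 without hairpin 2 anti-PD1 and 1 without control IgG.

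Hairpin 2 neutrophils carried the higher interferon response. Against the control line edgeR called 15 genes (0.615% of 2439), 9 higher and 6 lower, 0.369% and 0.246% of genes. As background, all 9 of the higher are known to be induced by interferon. Of the 21 type I list genes 5 were called, with a list median of 1.08 against 0.01 over all genes, and 2 of 13 of the interferon gamma list with a median of 0.62.

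Rsad2 encodes viperin, an antiviral enzyme (chromosome 12, 26442746 to 26456452, beside Cmpk2 at 26469204 to 26479837). It was at 543 and 835 CPM in control, 476 and 1288 under hairpin 1, and 2000 and 2624 under hairpin 2. Both hairpin 2 libraries lay above all others (1.78 ± 0.27 against control, adjusted p = 6.6e-05, edgeR). Its UMIs came from few cells: 3 of 64 neutrophils held 86 of the 128 UMIs in hairpin 2 IgG, and 3 of 104 held 145 of 373 in hairpin 2 anti-PD1. In the thinned cells it was seen in 10.2% and 10.4% of control neutrophils, 13.8% and 20.0% under hairpin 1, and 10.9% and 22.1% under hairpin 2, and in 1.25% to 3.75% of macrophages.

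Ifit2 differed most between hairpin 2 and control among the genes called higher (3.60 ± 0.47, adjusted p = 3.9e-06). In hairpin 2 IgG its 23 UMIs stood in 3 cells, 21 of them in 1 cell. Cxcl10, a chemokine for activated T cells, was at 40.5 and 111 CPM in control, 0 and 0 under hairpin 1, and 234 and 718 under hairpin 2. Hairpin 2 lay above control (2.64 ± 0.41, adjusted p = 9.9e-05), and the hairpin 1 neutrophils gave no Cxcl10 UMI. Isg15 (1.39 ± 0.28, adjusted p = 0.00513), the nucleotide kinase Cmpk2 (2.55 ± 0.48, adjusted p = 0.0023) and Ifit3 (2.73 ± 0.64, adjusted p = 0.0284) were also called.

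Of 3 testable guanylate-binding proteins, which are interferon-induced GTPases, Gbp5 and Gbp2 were called and Gbp7 was not (1.14 ± 0.45, adjusted p = 0.491). Gbp5 was at 37.8 and 84.3 CPM in control, 0 and 226 under hairpin 1, and 234 and 288 under hairpin 2 (2.10 ± 0.47 for hairpin 2, adjusted p = 0.0179). Gbp2 was at 89.2 and 103, 0 and 212, and 297 and 338 CPM (1.71 ± 0.43, adjusted p = 0.0472). Ddx60, an RNA helicase, was called as well (1.76 ± 0.42, adjusted p = 0.0303). Without the marked members 31 genes were called and all 9 higher ones were among them. DESeq2 called 2 genes, Rsad2 and Ifit2. With S100a8 and S100a9 at 10 UMIs or more 1 gene was called. Leaving out either of 2 libraries, control anti-PD1 or hairpin 1 IgG, gave 5 calls. Leaving out control IgG gave 2 calls, and hairpin 2 anti-PD1 gave 8.

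Hairpin 1 neutrophils were compared with control in the same way. The comparison shares its control libraries with that of hairpin 2, so the values are given side by side only. edgeR called 17 genes (0.697% of 2439), 8 higher (0.328%) and 9 lower (0.369%). Osm was at 1397 and 1254 CPM in control, 2590 and 3071 under hairpin 1, and 1860 and 1336 under hairpin 2. Both hairpin 1 libraries lay above all others (1.19 ± 0.25, adjusted p = 0.00801; hairpin 2 against control 0.27 ± 0.25). Ell2, a transcription elongation factor, was at 495 and 524, 872 and 1500, and 891 and 471 CPM (1.33 ± 0.31, adjusted p = 0.0249). The long noncoding RNA Mirt1 was at 614 and 541, 1031 and 1444, and 781 and 879 CPM (1.18 ± 0.29, adjusted p = 0.0312). These 3 were called again without the marked members and with at most 3000 UMIs.

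For the other 5 higher calls of hairpin 1, most UMIs of the IgG library came from 2 barcodes. Timp3, Col1a2, Col3a1, Wls and mt-Atp6 include the matrix genes of the tumour-line and fibroblast cells. Timp3 was at 27.0 and 61.7 CPM in control, 1137 and 142 under hairpin 1, and 78.1 and 211 under hairpin 2 (3.60 ± 0.57, adjusted p = 0.00014). The 2 deepest members of hairpin 1 IgG, with 5782 and 4629 UMIs, held 27.5% of that library's neutrophil UMIs and 41 of its 43 Timp3 UMIs. They held 44 of 48 for Col1a2, 36 of 39 for Col3a1, 15 of 16 for Wls and 110 of 127 for mt-Atp6. Without that library Timp3 was at 1.22 on the log2 scale, Wls at 1.3, Col1a2 at 0.84, mt-Atp6 at -0.02 and Col3a1 at -0.20, and no gene was called for hairpin 1. There were 2 calls without control IgG, 40 without hairpin 2 IgG and 28 without hairpin 2 anti-PD1. DESeq2 called 1 gene, Saa3.

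Genes that fell in both lines were mostly ones that monocytes and macrophages also express. Chil3, a chitinase-like protein, was at 784 and 551 CPM in control, 0 and 28.3 under hairpin 1, and 15.6 and 281 under hairpin 2. All knockdown libraries lay below the controls, with log2 differences of -5.17 ± 0.78 for hairpin 1 (adjusted p = 7.1e-05) and -2.01 ± 0.45 for hairpin 2 (adjusted p = 0.0179). Marked members held 71.0% and 69.0% of the Chil3 UMIs in the control libraries. Without them Chil3 was still called lower under hairpin 1 (-3.38, adjusted p = 0.0068) and hairpin 2 (-2.83, adjusted p = 0.000168), though Chil3 is itself among the 20 markers that defined removal.

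F13a1, the coagulation factor XIII A chain of resident macrophages, was at 424 and 243 CPM in control, 0 and 14.2 under hairpin 1, and 0 and 91.4 under hairpin 2. Both lines were called lower (-4.96 ± 0.95, adjusted p = 0.00213, and -2.38 ± 0.54, adjusted p = 0.0179). Ctsc, the protease that activates granule serine proteases, was at 254 and 197, 26.4 and 0, and 46.9 and 49.2 CPM and was called in both (-4.39 ± 0.90 and -2.13 ± 0.52, adjusted p = 0.00634 and 0.0344). Arg1, which breaks down arginine, was at 111 and 352, 159 and 14.2, and 0 and 21.1 CPM and was called for hairpin 2 (-4.05 ± 0.77, adjusted p = 0.0023). Marked members held 92.4% and 88.1% of control F13a1, 84.0% and 70.8% of Ctsc, and 73.2% and 95.3% of Arg1. Without them F13a1, Ctsc and Arg1 were too low to be tested. Ms4a6c, Id2 and Ccl9 were also called lower under hairpin 1. Without the marked members Id2 (adjusted p = 0.113) and Ccl9 (adjusted p = 0.666) were not called, and Ms4a6c was too low to be tested.

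Saa3, an acute-phase protein, fell in both lines and less of it lay in marked members (41.5% and 32.8% in control). It was at 859 and 689 CPM in control, 0 and 28.3 under hairpin 1, and 46.9 and 429 under hairpin 2. The summed control neutrophils held 653 Saa3 UMIs and those of hairpin 1 held 2, a ratio of levels of 41.4 (exact counting interval 11.4 to 342). It was called for hairpin 1 (-5.45 ± 0.75, adjusted p = 1.6e-05) and hairpin 2 (-1.67 ± 0.41, adjusted p = 0.0431). Without the marked members the values were -4.89 (adjusted p = 5.4e-10) and -1.17 (adjusted p = 0.0379). With at most 3000 UMIs hairpin 2 was at -0.94 (adjusted p = 0.396).

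**Figure D5:**
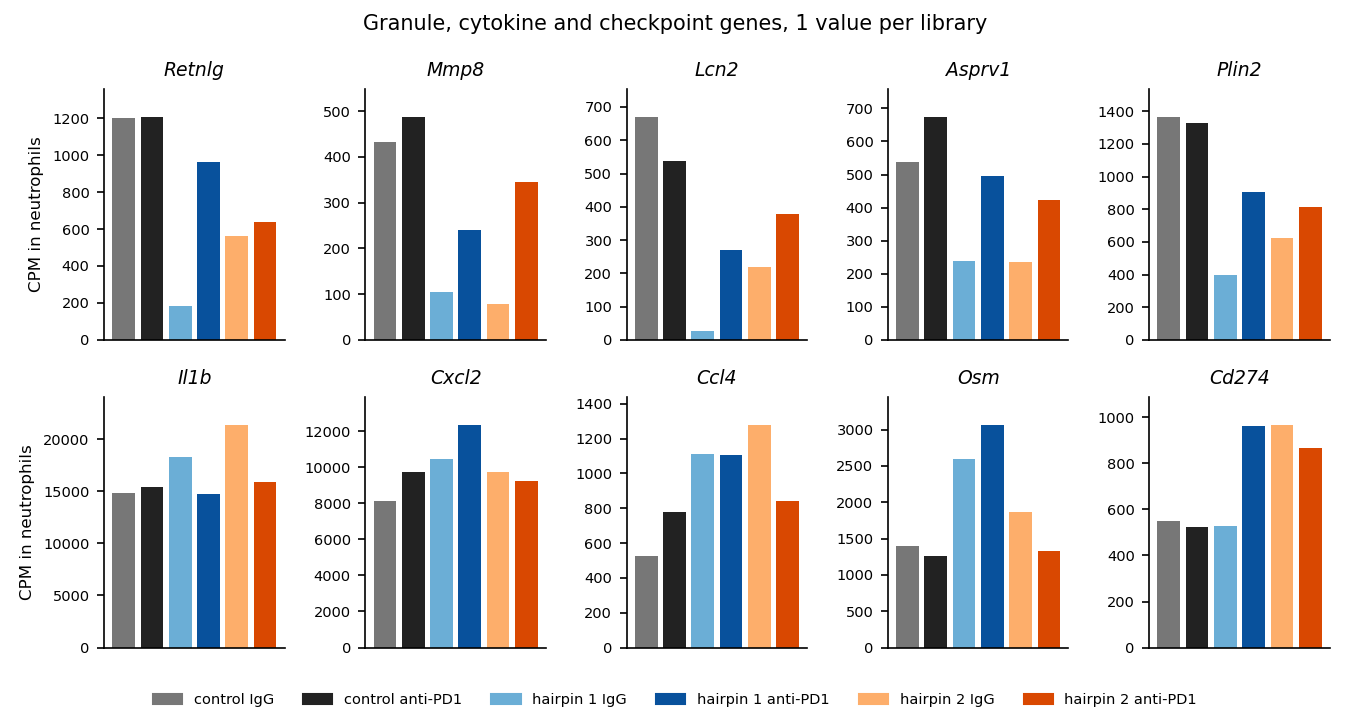
CPM of 10 granule, cytokine and checkpoint genes in the neutrophils of each library, from 0 on a linear axis, 1 bar per library. Retnlg, Mmp8, Lcn2, Asprv1 and Plin2 are highest in the control libraries, whereas Il1b and Cxcl2 differ little.

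No gene of the late granule lists passed the test in the pooled comparison. All 5 testable secondary granule genes and 8 of 9 testable gelatinase granule and secretory genes were at or below 0 in the pooled comparison. Their medians were -0.78 and -0.41, against 0.02 over all genes. At an unadjusted p under 0.05, 3 of 5 and 3 of 9 were lower, against 2.17% of all genes. The secondary list includes Chil3 and Lyz2. Marked members held 71.0% and 69.0% of the Chil3 UMIs in control and 76.9% and 77.4% of the Lyz2 UMIs. Outside them Lyz2 was at 177 and 231 CPM in control, 230 and 526 under hairpin 1, and 258 and 158 under hairpin 2. Retnlg was at 1203 and 1207 CPM in control, 185 and 963 under hairpin 1, and 563 and 640 under hairpin 2 (-1.03 ± 0.32, adjusted p = 0.385). Mmp8 was at 432 and 487, 106 and 241, and 78.1 and 345 CPM (-1.25 ± 0.36, adjusted p = 0.298). Both genes separated all 4 knockdown libraries from both controls, as did 9.8% of all genes on the lower side.

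Lcn2 binds bacterial iron carriers. It was at 670 and 537 CPM in control, 26.4 and 269 under hairpin 1, and 219 and 380 under hairpin 2. It was called lower under hairpin 1 (-1.81 ± 0.46, adjusted p = 0.0422) and not under hairpin 2 (-1.01 ± 0.37, adjusted p = 0.389). Once the marked members were removed it was called in both, at -1.53 (adjusted p = 0.0346) and -1.20 (adjusted p = 0.0232). Retnlg (-1.02, adjusted p = 0.0129), Plin2 (-0.88, adjusted p = 0.0379) and Xbp1 (-1.29, adjusted p = 0.0242) were then also called lower under hairpin 2. The lipid droplet protein gene Plin2 (-0.95 ± 0.26), Alox5ap of leukotriene synthesis (-0.84 ± 0.25), the integrin gene Itgam (-0.61 ± 0.25) and the stress factor Xbp1 (-1.15 ± 0.30) were lower in every knockdown library than in either control. Their adjusted p ran from 0.288 to 0.67. Asprv1, a skin-type protease typical of the stefin A cluster list, was at 538 and 674, 238 and 495, and 234 and 422 CPM (-0.79 ± 0.28, adjusted p = 0.536).

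Of 15 testable cytokine and chemokine genes none was called in the pooled comparison (median 0.24). Ccl4, an inflammatory chemokine, was at 527 and 779 CPM in control, 1110 and 1104 under hairpin 1, and 1281 and 844 under hairpin 2 (0.76 ± 0.27, adjusted p = 0.58). Cd274 was at 549 and 522, 529 and 963, and 969 and 865 CPM (0.69 ± 0.27, adjusted p = 0.646). For Ccl4 all knockdown libraries lay above control, and for Cd274 hairpin 1 IgG lay among the controls.

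In the other lists no gene was called for the pooled comparison. Median log2 differences were -2.61 for primary granule (only Ctsc of 7 testable), -0.23 for the stefin A cluster (4 testable), -0.07 for chemoattractant and growth factor receptors (13), -0.10 for adhesion and migration (13) and -0.24 for activating and inhibitory receptors (17). They were 0.09 for NF-kB feedback and survival (12), -0.32 for NADPH oxidase and NETs (6), 0.14 for immunosuppression and lipid mediators (10) and -0.10 for the tumour-adapted neutrophil list (16). They were -0.28 for zinc, metallothionein and antioxidant genes (12), 0.22 for immediate early and heat shock genes (17), -0.11 for integrated and ER stress (6) and 0.30 for the cell cycle (2). At an unadjusted p under 0.05 these 13 lists together had at most 1 higher or 2 lower members each.

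Named by size with separate groups and not called, Timp3, Sox4, Sparc, Gbp7, Col18a1, Kmt5b, Tcf4 and Tpm1 were higher in knockdown (log2 2.77 to 1.28, adjusted p 0.288 to 0.622). Sparc, Sox4, Col18a1, Tcf4 and Tpm1 were more abundant in the other barcodes than in neutrophils: Sparc was at 432 and 533 CPM in control neutrophils, 1797 and 651 under hairpin 1, 547 and 2026 under hairpin 2, and at a mean of 3182 in the rest. Lower and not called were F13a1, Chil3, Saa3, Ccl9, Ms4a6c, Myadm and Noct (-2.96 to -1.32, adjusted p 0.135 to 0.536).

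The 2 hairpins were compared directly to see where lines with the same target differ. edgeR called 7 of 2439 genes (0.287%), 5 higher (0.205%) and 2 lower (0.082%) under hairpin 2. Cxcl10 gave 117 UMIs under hairpin 2 and none under hairpin 1 (edgeR adjusted p = 1.4e-05). With hairpin 1 set to a floor of 3 UMIs over the group the ratio was 20.5. That ratio covers counting error only and is no bound, because the UMIs came from few cells. Of these 117 UMIs 15 came from hairpin 2 IgG (6 of 64 cells) and 102 from hairpin 2 anti-PD1 (10 of 104 cells), where 3 cells held 77. Hairpin 1 had only 29 and 65 cells. Ifit2 (3.30 ± 0.69, adjusted p = 0.0125), Rsad2 (1.37 ± 0.29, adjusted p = 0.0153) and Saa3 (3.78 ± 0.88, adjusted p = 0.0353) were higher. Igfbp3 was called too (3.07 ± 0.63, adjusted p = 0.0125), with 85 of the 110 UMIs of hairpin 2 anti-PD1 in 1 cell.

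Hmox1, which degrades haem, was lower under hairpin 2. It was at 341 and 600 CPM in control, 291 and 1104 under hairpin 1, and 78.1 and 211 under hairpin 2, so that the hairpin 2 libraries lay below all others (-2.29 ± 0.41 against hairpin 1, adjusted p = 0.00226, and -1.74 ± 0.38 against control, adjusted p = 0.0178). In hairpin 1 anti-PD1 3 cells held 68 of its 78 UMIs. The lower level was not particular to neutrophils. In macrophages Hmox1 was at 654 and 614 CPM in control, 395 and 682 under hairpin 1, and 225 and 328 under hairpin 2. In all barcodes other than neutrophils it was at 224 and 217, 107 and 172, and 56.3 and 88.1 CPM. Hsd11b1, which activates glucocorticoids, was at 146 and 175, 397 and 396, and 109 and 70.3 CPM (-2.28 ± 0.50 between the hairpins, adjusted p = 0.0183). In hairpin 1 IgG 8 of its 15 UMIs lay in the 2 deepest members. Hsd11b1 was called again without the marked members but not with at most 3000 UMIs. Sesn2 and Msra were lower in both hairpin 2 libraries than in both of hairpin 1, as were 14.2% of all genes, and were not called. DESeq2 called 1 gene, Cxcl10, and without hairpin 1 IgG 1 gene was called. Leaving out hairpin 1 anti-PD1 gave 11 calls, and leaving out hairpin 2 IgG gave 16. Without the marked members 35 were called.

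Anti-PD1 moved no gene past the threshold. edgeR called 0 of 2439 genes against IgG over the 3 lines (0% called, 55 or 2.26% at an unadjusted p under 0.05), also with the line as a block. Without control IgG it called 9, and without control anti-PD1 8. The type I interferon list was positive in 20 of 21 genes with a median of 0.37 (all genes 0.01). Rsad2 was higher under anti-PD1 in each line (0.65 ± 0.34, adjusted p = 0.999), and so was Slfn4 (0.39 ± 0.21). Hmox1 was higher in each line as well, at 1.37 ± 0.50 (adjusted p = 0.999).

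The genes of largest change whose anti-PD1 and IgG libraries did not overlap were F3, Dnajc8, Gde1 and Zmat2 on the higher side (3.12% of all genes) and Zfp654, Cdc27, Arrdc3 and Cep350 on the lower (4.72%), none called. F3, tissue factor, was at 81.1 and 152 CPM in control, 52.9 and 170 under hairpin 1, and 46.9 and 267 under hairpin 2 (1.43 ± 0.40, adjusted p = 0.999). The interaction of knockdown and anti-PD1 gave 0 calls, with 30 genes (1.23%) at an unadjusted p under 0.05.

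Setting neutrophils against macrophages of the same libraries tested whether the knockdown difference was particular to a cell type. edgeR called 18 of 12269 genes (0.147%), 6 higher in neutrophils (0.0489%) and 12 lower (0.0978%). Rsad2 in macrophages was at 107 and 137 CPM in control, 46.6 and 60.5 under hairpin 1, and 121 and 84.0 under hairpin 2, and its difference between the cell types was 1.56 ± 0.33 (adjusted p = 0.00245). Ifit2 in macrophages was at 76.2 and 57.7, 33.2 and 37.2, and 100 and 65.7 CPM, with a difference of 2.65 ± 0.52 (adjusted p = 0.00098). For both genes the macrophages of the 2 lines lay around or below control while hairpin 2 neutrophils lay above it. Some other genes called for hairpin 2 were higher in its macrophages too. Isg15 there was at 136 and 117 CPM against 89.8 and 88.0 in control, and Ifit3 at 72.5 and 56.5 against 44.6 and 37.9. Gbp5 was at 40.2 and 31.4 against 21.1 and 25.5, while Cmpk2 and Cxcl10 overlapped control. None of these was called for the difference between the cell types.

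The other 4 higher genes are neutrophil genes that stood at a low level in macrophages, lower in the knockdown libraries. Cxcl3 in macrophages was at 39.9 and 35.2 CPM in control and 5.76 to 12.2 in knockdown, while in neutrophils it stood at 1362 and 1585 against 1004 to 2491 (difference 1.70 ± 0.34, adjusted p = 0.00098). Hp, Lrg1 and G0s2 went the same way, with G0s2 at no more than 1.51 CPM in any macrophage sum. The libraries with fewer neutrophils were those with less of these transcripts in macrophages, and what part free RNA had in this was not tested. Ctsc, Mmp13, Arg1, Ccr2 and F13a1 were among the lower genes. Ctsc in macrophages was at 1421 and 1558 CPM in control and 1405 to 1831 in knockdown (difference -3.07 ± 0.49, adjusted p = 3.9e-06). Without the marked members 11 genes were called, 10 higher and 1 lower, and the lower one was Mmp13. With monocytes in place of macrophages 1 gene was called. Leaving out control IgG gave 1 call and leaving out control anti-PD1 gave 6. The count was 8 when hairpin 2 IgG was left out, and 29 when its anti-PD1 library was.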

How the data were processed

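Raw UMI counts per gene and barcode of 6 single-cell libraries were used as deposited by the authors. Per the submitters' processing notes Cell Ranger 7.0.1 and mm10 were used, and the tissue was digested with enzymes per the labels' protocols. Neutrophil counts were summed per library (37834 to 486357 UMIs) and tested with edgeR 4.0.16 (TMM, filterByExpr, quasi-likelihood test, genotype or line plus treatment, Benjamini-Hochberg adjustment over all genes tested), with DESeq2 1.42.0 as the alternative. Selection genes stayed in the fit but were not counted. CPM are UMIs per 1000000 neutrophil UMIs of a library. Shares were compared by exact permutation. The members and gene lists were chosen with earlier results of these data known.

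Named genes were the largest log2 differences among those called with a mean of at least 50 CPM, filled up, where fewer than 5 were called in a direction, with genes of at least 100 CPM whose groups did not overlap. Beside them any gene of the 18 function lists and 14 marker lists could be named. Some genes that met the rule are not reported here. Other filters, sizes of the selection and left-out libraries were tried as alternatives. Removal of members with 4 or more of 20 monocyte and macrophage markers, and its combination with a limit of 3000 UMIs, were chosen after seeing the data. So were the 3000 UMI limit for the comparisons of single hairpins, the 20 UMI range and the Retnlg range. UMI counts cover counting error only. Scripts were tested on simulated counts.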

Additional observations from a re-analysis of the deposited data

Results flagged for a closer look

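The effects of the 2 hairpins differed by a test of the difference itself for 7 genes in the neutrophils. Hairpin 2 minus hairpin 1 on the log2 scale was 9.74 for Cxcl10 (a fitted value against 0 UMIs, not a bound), 3.78 for Saa3, 3.30 for Ifit2, 3.07 for Igfbp3 and 1.37 for Rsad2, and it was -2.28 for Hsd11b1 and -2.29 for Hmox1.

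The knockdown difference differed between neutrophils and macrophages of the same libraries for 11 genes named here. Neutrophils minus macrophages was 3.53 for G0s2, 2.65 for Ifit2, 2.14 for Lrg1, 1.94 for Hp, 1.70 for Cxcl3 and 1.56 for Rsad2. It was -3.07 for Ctsc, -3.04 for Mmp13, -2.74 for Arg1, -2.39 for Ccr2 and -2.31 for F13a1. No group had 4 or more libraries of one line and treatment, so no library could be tested as an outlier.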

How the results depend on the processing

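The neutrophil share kept its direction under every alternative tried for knockdown and for anti-PD1, 26 in all. Its knockdown difference was between -2.36 and -1.98 (log2) when single libraries were left out. Pooled knockdown called 0 genes, 22 with no filter on low counts, 8 with at most 3000 UMIs, 2 without marked members, 14 with both limits, 1 within anti-PD1 only, and 0 to 10 with single libraries left out. Anti-PD1 called 0 genes, 3 with no filter on low counts, and 0 to 9 with single libraries left out. With the line as a replicate block it also called 0. Hairpin 2 against hairpin 1 called 7 genes, 1 with DESeq2, 1 with S100a8 and S100a9 at 10 UMIs or more, 35 without marked members, and 1 to 16 with single libraries left out. Hairpin 1 against control called 17 genes, 1 with DESeq2, 0 with S100a8 and S100a9 at 10 or more, 11 with at most 3000 UMIs, and 0 to 40 with single libraries left out. Hairpin 2 against control called 15 genes, 2 with DESeq2, 1 with S100a8 and S100a9 at 10 or more, 31 without marked members, 27 with at most 3000 UMIs, and 2 to 18 with single libraries left out. The difference between neutrophils and macrophages called 18 genes, 1 with monocytes in place of macrophages, 11 without marked members, and 1 to 29 with single libraries left out. Fewer samples or cells are part of most of these alternatives. Beyond that the cause was not tested.

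Of 920 values of 74 named gene results under alternatives, 643 stayed on their side of the threshold, 247 lost it, 25 gained it and 5 changed sign. Against control, Col3a1 of hairpin 1 was between -0.20 (without hairpin 1 IgG) and 4.35 with single libraries left out. mt-Atp6 of hairpin 1 was at -0.21 without marked members, -0.10 with at most 3000 UMIs, -0.04 with both limits and between -0.02 (without hairpin 1 IgG) and 2.74 with single libraries left out. Where a left-out library leaves 1 in a line, that library is assumed to vary like the others. Anti-PD1 was paired by line, as given above. For knockdown, no paired analysis was possible because each hairpin is its own line.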
